A study of Mus musculus with 16 samples.

Results

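The genes of blood coagulation and fibrinolysis were followed across the cell types of the mouse liver. A set of 32 genes was taken by symbol, covering clotting factors, their inhibitors and receptors, and the plasminogen system, out of 47729 genes in the count tables. All 32 were found in every table. RNA was sequenced in 16 libraries from unchallenged livers, with 2 libraries for each of 4 cell types and each of 2 genotype labels, KO and WT. The cell types were endothelial cells (ECs) sorted with the Pan-endo antibody, hepatic stellate cells (HSCs) sorted by their ultraviolet autofluorescence, Kupffer cells sorted with F4/80, and hepatocytes separated by centrifugation. In mice of the KO label, a tamoxifen-inducible Cre driven by the Cdh5 promoter was meant to delete exon 7 of floxed Zeb2 in endothelium, and a Cre-dependent eGFP reporter was carried in the R26R locus. The WT label stands for Cre-negative littermates, and their libraries are also listed with floxed exon 7. Both labels received tamoxifen at 2 mg per day for 5 days, and RNA was collected 2 weeks later. The study used 8-week-old males unless stated otherwise. Hepatocytes, HSCs and Kupffer cells of the KO label were not targets of the driver.

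Coagulation starts when blood meets tissue factor, which binds factor VII and activates factors X and IX. The tenase and prothrombinase complexes then amplify the signal until thrombin cuts fibrinogen into fibrin, which factor XIII cross-links. Antithrombin, the protein C pathway and tissue factor pathway inhibitor restrain this chain, and plasmin dissolves the clot. The liver is known as the main source of circulating clotting factors, with hepatocytes making most of them and endothelium making factor VIII and several anticoagulant surface proteins.

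The number of reads on genes was 14806833 in the median library and ranged from 12872706 to 15690506. Levels are given as CPM (counts scaled to a common library total, from counts on genes), and 3 counts, taken as the floor of detection, correspond to 0.191 to 0.233 CPM. This floor covers counting error only. Zeb2 was 106 ± 0.53 CPM (SD, n = 2) in ECs labelled WT and 165 ± 48.6 CPM in ECs labelled KO, so that the targeted gene was not lower under the KO label (log2 fold change 0.62, SE 0.24, edgeR adjusted p = 0.303). Counts cover the whole gene and do not resolve exon 7, so this value does not check the deletion itself. Genotypes are therefore named as labels throughout. Each cell type carried its own defining markers, with all 10 EC markers, all 9 Kupffer cell markers and all 9 HSC markers detected in their own libraries. These markers also had reads elsewhere, with medians of up to 5.18%, 5.13% and 2.1% of their own WT level outside their cell type. All 15 hepatocyte markers, among them Alb and Apoa1, also had reads in every EC, HSC and Kupffer cell library. Their median level relative to WT hepatocytes ranged from 0.532% to 23.9% over these 12 libraries. In bulk RNA, fewer cells of a type and less RNA per cell cannot be told apart.

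The first question was in which cell type each gene had its highest RNA level. Among the 8 WT libraries, 19 of the 32 genes were highest in hepatocytes, 2 in ECs (F8 and Tfpi), 1 in HSCs (Adamts13) and 1 in Kupffer cells (Plau). A gene counted as highest when edgeR's quasi-likelihood test placed it above each of the other 3 cell types with an adjusted p under 0.05. Of all 15979 genes tested, 13.1% were highest in hepatocytes, 1.98% in ECs, 3.14% in HSCs and 4.24% in Kupffer cells. The other 9 genes, F3, F13a1, Vwf, Thbd, Procr, Pros1, Plat, Plaur and F2r, had no single highest cell type. The 19 hepatocyte genes exceeded the next cell type, ECs in every case, by 3.58 to 6.98 times in CPM (adjusted p between 0.000647 and 0.00556). Their log2 differences in the fit, from 3.20 to 4.17, are on the TMM scale. Relative to scaling by library totals, TMM shifted the median gene by -1.34 (log2, ECs minus hepatocytes), -1.06 (HSCs minus hepatocytes), -0.97 (Kupffer cells minus hepatocytes), -0.37 (ECs minus Kupffer cells) and -0.28 (ECs minus HSCs), and with totals alone the number of calls in each cell type was the same. The calls in hepatocytes were also the same in all 15 alternative settings. The 32 genes together took 5.53% to 6.31% of all counts in hepatocyte libraries and 0.211% to 1.38% in the others.

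**Figure D1:**
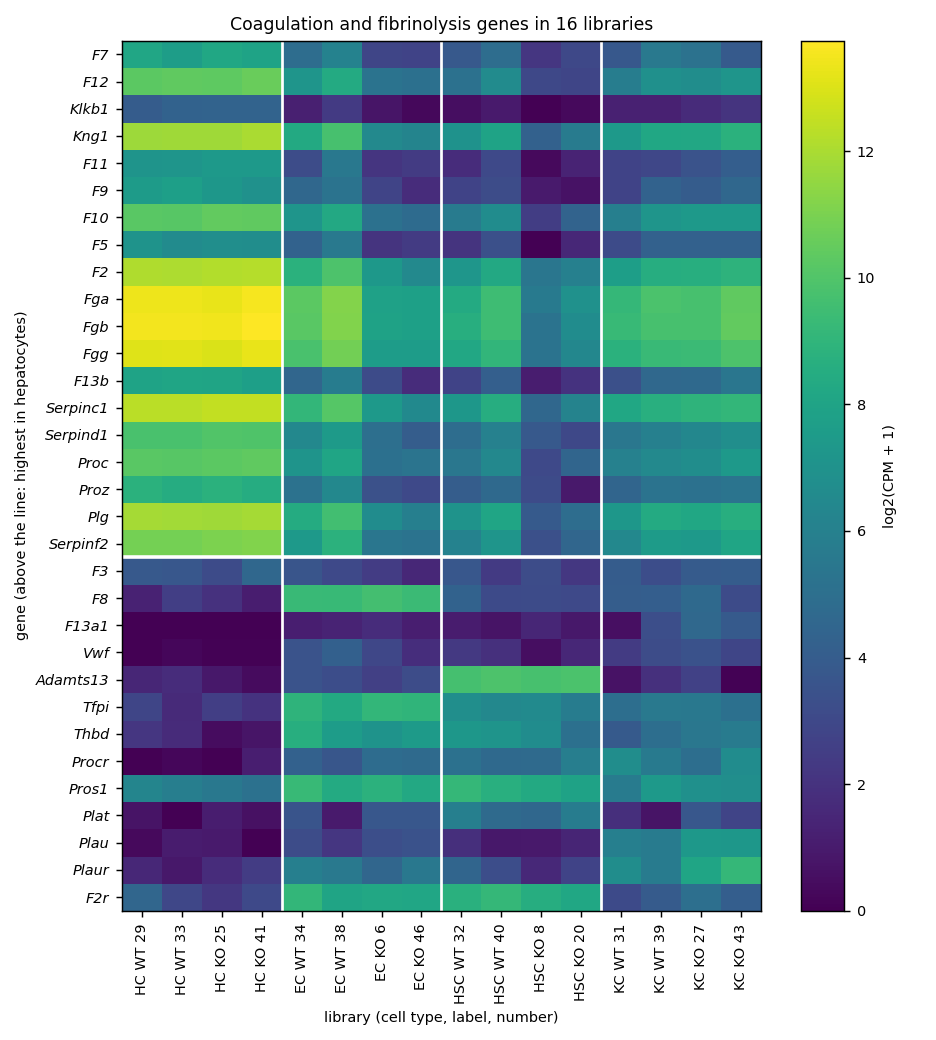
Level of each of the 32 genes, as log2(CPM + 1) in colour, in the 16 libraries ordered by cell type, label and library number (HC, hepatocytes). The 19 genes above the white line reached their highest level in hepatocytes and were higher in EC WT libraries than in EC KO libraries, whereas F8 stood out in ECs and Adamts13 in HSCs.

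Initiation of clotting rests on F3, tissue factor, and F7, the protease that it binds. F3 was low in every WT cell type. It reached 13.4 and 12.2 CPM in hepatocytes, 15.1 and 8.55 CPM in Kupffer cells, 11.2 and 7.15 CPM in ECs and 12.2 and 4.03 CPM in HSCs. The hepatocyte values lay just above those of HSCs, above those of ECs and within the range of Kupffer cells. In the edgeR test hepatocytes were above ECs (adjusted p = 0.047) but not above HSCs (adjusted p = 0.0579) or Kupffer cells (adjusted p = 0.204). The log2 difference to ECs was 1.82 on the TMM scale, wider than the WT means of 12.8 and 9.16 CPM show. The gene was called highest nowhere. F7 was 277 and 199 CPM in WT hepatocytes against 29.4 and 67.4 CPM in WT ECs, a difference of 4.91 times (adjusted p = 0.00365). F7 lies on chromosome 8, where F10 starts 1498 bases beyond its end and Proz starts 4237 bases beyond F10 on the same strand. All 3 neighbours were highest in hepatocytes. Compared per length of transcript, in TPM (counts per exonic length, scaled to a common total), F10 reached 965 ± 29.4 in WT hepatocytes, F7 reached 287 ± 72.7 and Proz reached 162 ± 22.6.

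The contact system links surfaces to clotting through F12, which activates F11, through Klkb1 (plasma prekallikrein) and through Kng1 (kininogen). All 4 genes were highest in hepatocytes. Kng1 was the most abundant of them per length, with 2358 ± 14.3 TPM in WT hepatocytes, followed by F12 with 1483 ± 56.2 TPM and F11 with 141 ± 1.14 TPM. Klkb1 had only 13.7 ± 1.92 TPM. The identifier that the tables call Klkb1 spans chr8:45269671-45308466 (GRCm38, minus strand), carries another name in the annotation used here, and shares exonic bases on the same strand with Cyp4v3 and with the gene annotated there as Klkb1, so its values are uncertain. Kng1 has a close paralog, Kng2, and reads shared by both could be lost or split.

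The tenase and prothrombinase complexes consist of the proteases F9 and F10, their cofactors F8 and F5, and F2, prothrombin. F8 (chrX:75172715-75382615, GRCm38, minus strand) departed from its partners. It was 641 and 604 CPM in WT ECs, 15.4 and 16.2 CPM in Kupffer cells, 18.7 and 7.36 CPM in HSCs and 1.47 and 4.91 CPM in hepatocytes. Every EC library lay above every other library, and the mean in WT ECs was 39.4 times that of Kupffer cells, the next cell type (adjusted p = 0.0026). F2 was the most abundant of the group per length, with 2081 ± 107 TPM in WT hepatocytes. F9 had 165 ± 12.8 TPM and F5 had 34.7 ± 8.3 TPM there, against 194 ± 19.4 TPM for F8 in WT ECs. F5, the cofactor that factor Xa needs, showed the smallest gap of the 19 hepatocyte genes between hepatocytes (133 and 97.6 CPM) and ECs (19.0 and 45.3 CPM), at 3.58 times.

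Fibrinogen is built from the chains encoded by Fga, Fgb and Fgg, and these were the 3 most abundant genes of the set. Fgb reached 11644 and 11703 CPM in WT hepatocytes, Fga 10992 and 10944 CPM, and Fgg 8609 and 8905 CPM. The replicates lay close to each other, and per length the order became Fgg with 9349 ± 2.64 TPM, Fga with 8145 ± 217 TPM and Fgb with 6848 ± 137 TPM. WT ECs followed with 1252 and 2341 CPM of Fga, 1204 and 2244 CPM of Fgb and 876 and 1821 CPM of Fgg. The 3 genes lie side by side on chromosome 3, Fgg and Fga 11026 bases apart and Fga and Fgb 6513 bases apart, with Fgb on the opposite strand. Exons of Fgg overlap those of a gene model on the other strand, and the strand setting of the counting is not given in the sources used here.

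Promoters are shown for the fibrinogen genes, which moved together, and for Adamts13, the gene with the widest ratio between its first and second cell type. The sequences are from RefSeq (GRCm38.p6), run from 250 bases before to 50 bases after the annotated start, and were available for 25 of the 32 genes. Those not matched were Kng1, Vwf, Thbd, Proc, Plg, Plat and Plau. Capitals mark matches on either strand to 4 motifs, the core of the site of the hepatocyte factor HNF1 (GTTAAT), the C/EBP motif (TTGCNNAA), the AP-1 motif (TGACTCA) and the GC box (GGGCGG), and no marked matches overlap in the 4 sequences printed.
Fga, chr3:83025903-83026202, plus strand: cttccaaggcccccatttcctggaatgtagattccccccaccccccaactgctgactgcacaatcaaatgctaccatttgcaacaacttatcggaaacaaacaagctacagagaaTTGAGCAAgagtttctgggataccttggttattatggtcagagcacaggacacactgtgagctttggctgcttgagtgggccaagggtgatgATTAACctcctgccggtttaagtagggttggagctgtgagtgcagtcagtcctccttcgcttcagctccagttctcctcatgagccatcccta
Fgb, chr3:83049814-83050113, minus strand: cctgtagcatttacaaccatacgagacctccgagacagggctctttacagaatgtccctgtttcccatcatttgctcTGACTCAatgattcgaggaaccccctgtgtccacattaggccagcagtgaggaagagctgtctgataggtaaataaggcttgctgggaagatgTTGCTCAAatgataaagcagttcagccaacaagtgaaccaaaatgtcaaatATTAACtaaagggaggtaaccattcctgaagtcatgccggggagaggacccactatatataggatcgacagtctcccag
Fgg, chr3:83007474-83007773, plus strand: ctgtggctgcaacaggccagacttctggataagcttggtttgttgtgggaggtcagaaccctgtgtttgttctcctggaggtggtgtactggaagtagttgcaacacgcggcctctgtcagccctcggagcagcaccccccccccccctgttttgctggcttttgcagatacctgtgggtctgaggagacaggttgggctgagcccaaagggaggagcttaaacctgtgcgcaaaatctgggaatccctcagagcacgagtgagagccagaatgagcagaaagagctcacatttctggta
Adamts13, chr2:26973166-26973465, plus strand: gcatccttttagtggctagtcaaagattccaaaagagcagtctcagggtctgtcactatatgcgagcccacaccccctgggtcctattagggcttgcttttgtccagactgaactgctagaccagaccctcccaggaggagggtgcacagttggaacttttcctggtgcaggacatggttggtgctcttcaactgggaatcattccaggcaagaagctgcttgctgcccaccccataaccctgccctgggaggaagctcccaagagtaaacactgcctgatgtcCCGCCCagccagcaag

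Fga and Fgb each held 1 match to the HNF1 core and 1 to the C/EBP motif, whereas the window of Fgg held none of the 4 motifs, although its TPM was the highest of the 3 genes. Among the 16 hepatocyte genes with a promoter, 5 held the HNF1 core (F13b, F2, Fga, Fgb and Proz) and 6 held the C/EBP motif (F11, F9, Fga, Fgb, Klkb1 and Serpinc1), with Klkb1 matched by its symbol. Over 32851 mouse promoters of the same length, 7.1% held the first and 10.8% the second. The GC box was in 2 of these 16 promoters and in 35.7% of all promoters, and the AP-1 motif was in 1 and in 5.2% of all. A match describes letters in this window and does not show a bound site.

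Factor XIII, the enzyme that cross-links fibrin, is formed by the catalytic A chain (F13a1) and the carrier B chain (F13b), and the 2 chains did not share a cell type. F13b was 253 and 270 CPM in WT hepatocytes, 6.98 times its level in ECs, the widest ratio among the 19 genes. F13a1 had no read in any of the 4 hepatocyte libraries. It was 0.469 and 9 CPM in WT Kupffer cells and 23.7 and 13.9 CPM in Kupffer cells labelled KO, with at most 2.37 CPM in any EC or HSC library. The WT Kupffer libraries differed widely from each other and the gene was not called (adjusted p = 0.346 against ECs), whereas the same test on the 8 libraries labelled KO placed F13a1 highest in Kupffer cells.

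Platelet adhesion involves Vwf, the multimer that tethers platelets, and Adamts13, the protease that trims it. Adamts13 (chr2:26973416-27009628, GRCm38, plus strand) was 837 and 970 CPM in WT HSCs and 862 and 929 CPM in HSCs labelled KO. No other library exceeded 10.6 CPM, and the WT mean in HSCs was 95.1 times that in ECs, the next cell type (adjusted p = 0.000797). Per length it reached 590 ± 53.6 TPM. Vwf was low, with 10.3 and 17.9 CPM in WT ECs and 4.23 and 8.09 CPM in WT Kupffer cells, 3.84 and 2.75 CPM in WT HSCs, and 0 and 0.205 CPM in WT hepatocytes. ECs were above Kupffer cells by 2.28 times, which did not pass the test (adjusted p = 0.518).

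The anticoagulants differed in the cell type with the highest level. Serpinc1 (antithrombin), Serpind1 (heparin cofactor II), Proc (protein C) and Proz (protein Z) were highest in hepatocytes, with 5093 and 5154 CPM of Serpinc1, 899 and 905 CPM of Serpind1, 1218 and 1176 CPM of Proc and 434 and 368 CPM of Proz in the WT libraries. Tfpi (chr2:84432855-84476775, GRCm38, minus strand), which blocks the complex of tissue factor and factor VIIa, was 482 and 324 CPM in WT ECs and 108 and 83.9 CPM in WT HSCs. Every EC library exceeded every other library, yet the adjusted p against HSCs was 0.0498, and leaving out any 1 of the 6 WT libraries of ECs, HSCs or Kupffer cells ended the call. Thbd (thrombomodulin), the surface protein on which thrombin activates protein C, was 399 and 197 CPM in WT ECs against 157 and 139 CPM in WT HSCs. These groups did not overlap, but the difference of 2.02 times did not pass the test (adjusted p = 0.325). Procr, the endothelial protein C receptor, was not highest in ECs. It was 18.2 and 11.9 CPM there, 33.5 and 24.7 CPM in WT HSCs and 105 and 48.7 CPM in WT Kupffer cells, the difference between the latter 2 not passing the test (adjusted p = 0.11). Pros1, the vitamin K-dependent cofactor of activated protein C (protein S), was found in ECs with 619 and 334 CPM and in HSCs with 578 and 404 CPM. It was 76.5 and 58.0 CPM in hepatocytes, below both in CPM. That difference passed the test against HSCs (adjusted p = 0.0292) but not against ECs (adjusted p = 0.0531).

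In the fibrinolytic system, the proenzyme and its plasma inhibitor were separated from the activators. Plg (plasminogen) was 3831 and 3680 CPM and Serpinf2 (antiplasmin) was 1881 and 1903 CPM in WT hepatocytes, and both were called highest there. Plat, the tissue-type activator, was 61.0 and 25.8 CPM in WT HSCs, 10.8 and 1.01 CPM in ECs, 2.55 and 0.652 CPM in Kupffer cells and 0.637 and 0 CPM in hepatocytes. The HSC libraries lay above all others, also under the KO label with 23.4 and 53.9 CPM, but the difference did not pass the test against ECs (adjusted p = 0.166). Plau (chr14:20836660-20843385, GRCm38, plus strand), the urokinase-type activator, was 60.0 and 50.8 CPM in WT Kupffer cells and 8.02 and 3.5 CPM in ECs, with 2.63 CPM or less in the other WT libraries. The ratio to ECs was 9.62 (adjusted p = 0.0172), and the call was lost without library EC WT 38 or without library Kupffer WT 31. Plaur (chr7:24462484-24475968, GRCm38, plus strand), the receptor of urokinase, had 108 and 51.0 CPM in WT Kupffer cells and 59.9 and 47.0 CPM in WT ECs, which overlapped. Under the KO label, Plaur was called highest in Kupffer cells.

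F2r, the thrombin receptor PAR1, was found in ECs with 549 and 257 CPM and in HSCs with 421 and 579 CPM. Kupffer cells had 7.65 and 14.5 CPM and hepatocytes 22.6 and 6.55 CPM. ECs and HSCs overlapped, and the gene was called highest in neither.

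**Figure D2:**
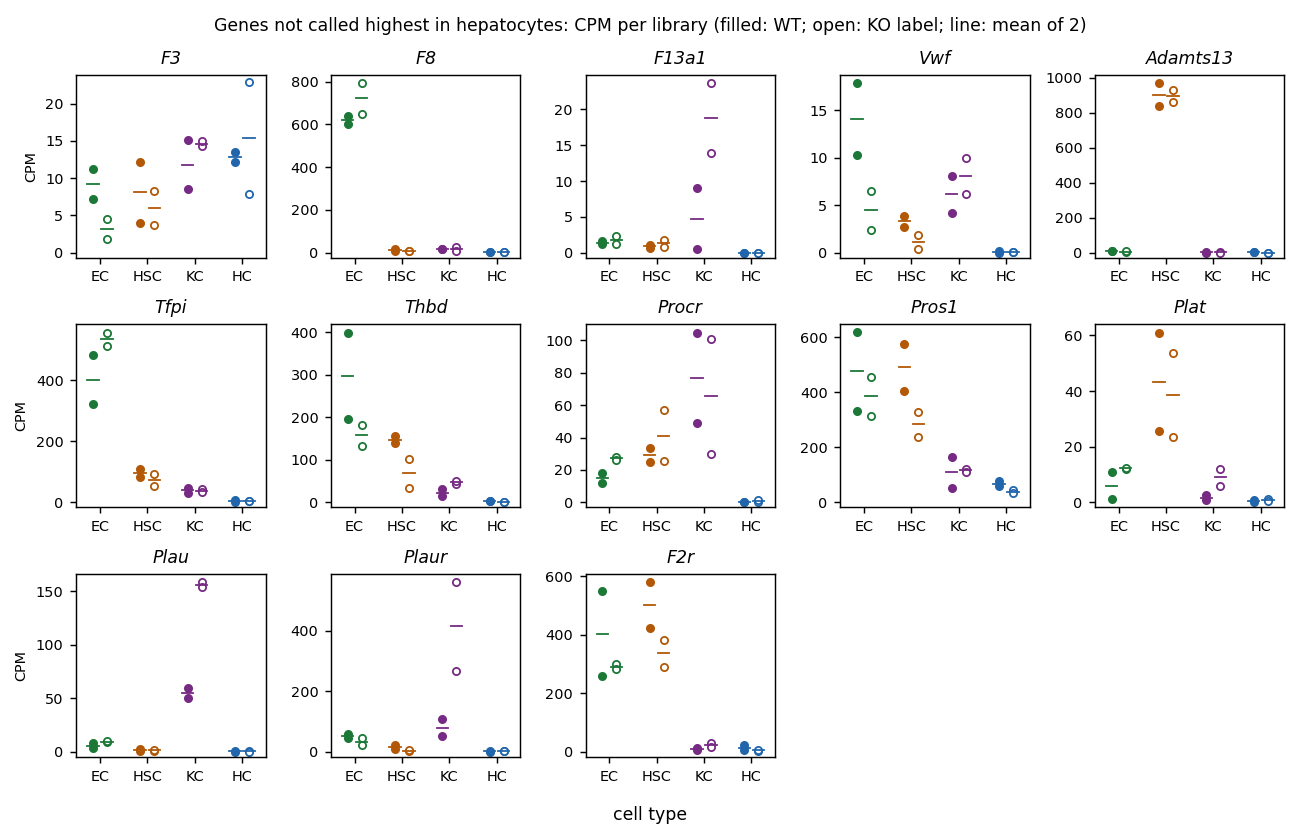
CPM (linear axis from 0, a separate scale per gene) of the 13 genes that were not called highest in hepatocytes, in ECs, HSCs, Kupffer cells (KC) and hepatocytes (HC), with 1 point per library, filled for WT and open for KO, and a line at the mean of 2. F8 and Tfpi were high in ECs, Adamts13 in HSCs and Plau in Kupffer cells, where Plau and Plaur had higher points under the KO label.

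The wider list of 25 further coagulation genes was examined in the same way. Of its 22 genes tested, 10 were highest in hepatocytes, 3 in HSCs, 1 in Kupffer cells and 0 in ECs. Among all 15979 genes tested, the shares were 13.1%, 3.14%, 4.24% and 1.98%, and the counts in Kupffer cells and ECs were close to them. The smallest lead among the 10 hepatocyte calls was 1.37 times the next cell type in CPM. The most abundant in hepatocytes were Hrg (histidine-rich glycoprotein) with a WT mean of 1352 CPM, Cpb2 (the carboxypeptidase TAFI, which protects fibrin from lysis) with 625 CPM and Habp2 (a plasma protease) with 349 CPM. HSCs led in Anxa2 (a cell surface receptor for the tissue-type activator and plasminogen) with 1133 CPM and in Thbs1 (thrombospondin) with 298 CPM. Entpd1, the ectonucleotidase CD39 that degrades platelet-activating ADP, was highest in Kupffer cells with 601 CPM.

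The hepatocyte genes were also read in the non-parenchymal libraries, at levels that followed the hepatocyte markers. Expressed as a percentage of the WT hepatocyte mean, the median of the 19 genes was 10.3% and 22.3% in the EC WT libraries, 2.71% and 2.01% in EC KO, 3.41% and 7.13% in HSC WT, 0.448% and 1.16% in HSC KO, 5.04% and 8.78% in Kupffer WT and 8.96% and 11.9% in Kupffer KO. The medians of the 15 markers in the same libraries were 10.9% and 23.9%, 2.41% and 1.95%, 3.22% and 7.73%, 0.532% and 1.2%, 5.26% and 8.24%, and 9.37% and 12.1%. Of 228 values of a gene in a library, 210 lay inside the range of the markers of that library. The 18 values outside came from 8 genes with F11 and F5 leading, and included F7 in 2 libraries. F7 stood above the marker median in all 4 HSC libraries, by 1.60 to 2.79 times, and F5 did so in all 4 Kupffer libraries, by 1.29 to 1.96 times. In all 4 EC libraries F10 was above it by 1.12 to 1.19 times, F7 by 1.09 to 1.24 times and F5 by 1.13 to 1.85 times. These ratios are descriptions of a few libraries and carry no test.

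**Figure D3:**
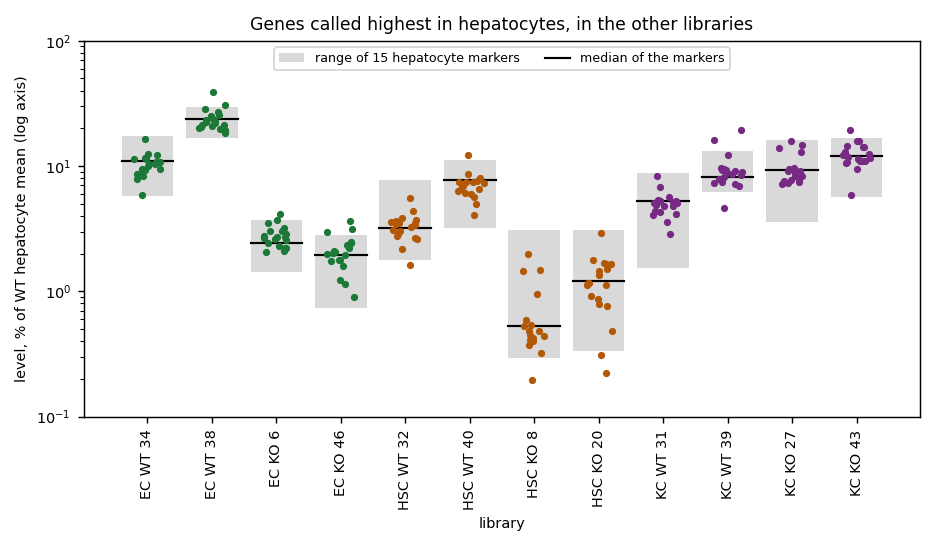
Level of the 19 genes called highest in hepatocytes in each of the 12 other libraries, as a percentage of the WT hepatocyte mean on a log axis (points, green ECs, orange HSCs, purple Kupffer cells; 2 values at 0 are not drawn), with the range (grey) and median (line) of 15 hepatocyte markers. Points and grey bands moved together, from 22.3% in library EC WT 38 to 0.448% in HSC KO 8 for the median of the genes.

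The second question was whether the genes differed between the KO and WT labels. In ECs, 14 of the 32 genes were lower under the KO label and 0 were higher at an adjusted p under 0.05, whereas 2.08% of all 14631 genes tested passed in either direction, 1.97% lower and 0.116% higher. At an unadjusted p under 0.05, 20 of the genes were lower and 1 was higher, against 10.1% and 4.86% of all genes, and DESeq2 placed 18 under its adjusted threshold, against 6.72% of all genes. All 14 belonged to the 19 hepatocyte genes, which as a set had a median log2 fold change of -2.81, between -3.12 and -2.46. The median over all genes tested was -0.01. The 857 hepatocyte-enriched genes (at least 10 CPM in WT hepatocytes and at least 8 times the WT Kupffer mean) had a median of -2.47 among the 833 tested, and 259 of them passed. The summed level of the 15 hepatocyte markers moved in the same direction, from 15143 to 32516 CPM in EC WT libraries to between 2579 and 3545 CPM in EC KO libraries, with all 15 markers read in each of them. Their part in the result was not tested.

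Fibrinogen illustrates the size of the EC difference. Fga was 1252 and 2341 CPM under WT and 230 and 221 CPM under KO, a fall of 7.97 times (log2 fold change -2.99, SE 0.36, edgeR adjusted p = 0.029). Fgb had 1204 and 2244 CPM against 239 and 226 CPM, and Fgg had 876 and 1821 CPM against 196 and 193 CPM. The KO libraries agreed closely for these genes, while library EC WT 38 lay above EC WT 34, as its hepatocyte markers also did. F5 showed the largest fall of the 14, from 19.0 and 45.3 CPM to 3.13 and 4.17 CPM (log2 fold change -3.12, SE 0.51, adjusted p = 0.0406), and F2 the smallest, from 445 and 952 CPM to 159 and 88.2 CPM (-2.51, SE 0.44, adjusted p = 0.0483). The other genes that passed were F7, F12, Kng1, F10, Serpinc1, Proc, Proz, Plg and Serpinf2, with log2 fold changes between -3 for F7 and -2.53 for Proc. F9 and Serpind1 had values of -2.85 and -2.46 and just missed the threshold, each with an adjusted p of 0.0523. F13b (-2.88, adjusted p = 0.103) and F11 (-2.76, adjusted p = 0.166) had wider errors. The count of 14 depended on single libraries, and the calls were lost without EC KO 6 or without EC KO 46. With library totals in place of TMM factors 7 genes passed, beside 164 of 833 hepatocyte-enriched genes. The median of the 19 hepatocyte genes was -2.96 without EC KO 6 and -2.75 without EC KO 46. It was -2.13 without EC WT 38, -3.25 without EC WT 34 and -2.81 with library totals. The median of the hepatocyte-enriched genes was -2.73, -2.33, -1.89, -2.82 and -2.48 in the same order. All 19 estimates were below 0 in each of these 5 settings. The share of all genes that passed in them was not counted.

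The 13 genes outside the hepatocyte group had a median log2 fold change of -0.32 in ECs, between -1.67 and 1.03, and none passed the adjusted test. F8 was 641 and 604 CPM under WT and 794 and 650 CPM under KO, and Tfpi was 482 and 324 CPM under WT and 557 and 513 CPM under KO. These groups did not overlap, with higher values under KO and estimates of 0.21 (SE 0.23) and 0.40 (SE 0.28) on the log2 scale. The 10 EC markers likewise summed to 15004 to 18117 CPM in EC WT and 19680 to 20163 CPM in EC KO libraries. Their part was not tested. Groups that do not overlap were frequent, being found for 29 of the 32 genes and for 48.2% of all genes. Vwf was 10.3 and 17.9 CPM under WT and 6.48 and 2.43 CPM under KO (log2 fold change -1.67, SE 0.57, unadjusted p = 0.0244, adjusted p = 0.253). F3 was 11.2 and 7.15 CPM under WT and 4.46 and 1.88 CPM under KO (-1.56, SE 0.60, unadjusted p = 0.0386, adjusted p = 0.302). Procr was the only gene of the set with an unadjusted p under 0.05 in the upward direction, with 18.2 and 11.9 CPM under WT and 28.2 and 26.3 CPM under KO (0.85, SE 0.33, unadjusted p = 0.039, adjusted p = 0.303). Kupffer cell markers summed to 487 to 790 CPM in EC WT and 1073 to 1104 CPM in EC KO libraries, and HSC markers to 1284 to 1542 CPM and 546 to 802 CPM, with all 9 of each list read, and their part was not tested. Thbd was 399 and 197 CPM against 133 and 182 CPM, which did not overlap (adjusted p = 0.349). Markers of larger vessels, where Vwf, Thbd and Procr are usually found, summed to 819 to 1064 CPM in EC WT and 734 to 994 CPM in EC KO libraries. The same list summed to 808 to 818 CPM in HSC WT and 799 to 815 CPM in HSC KO libraries, so it was not particular to ECs. Whether Ltbp4, a gene of this list, had reads is recorded inconsistently. The part of these markers in the EC values was not tested.

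**Figure D4:**
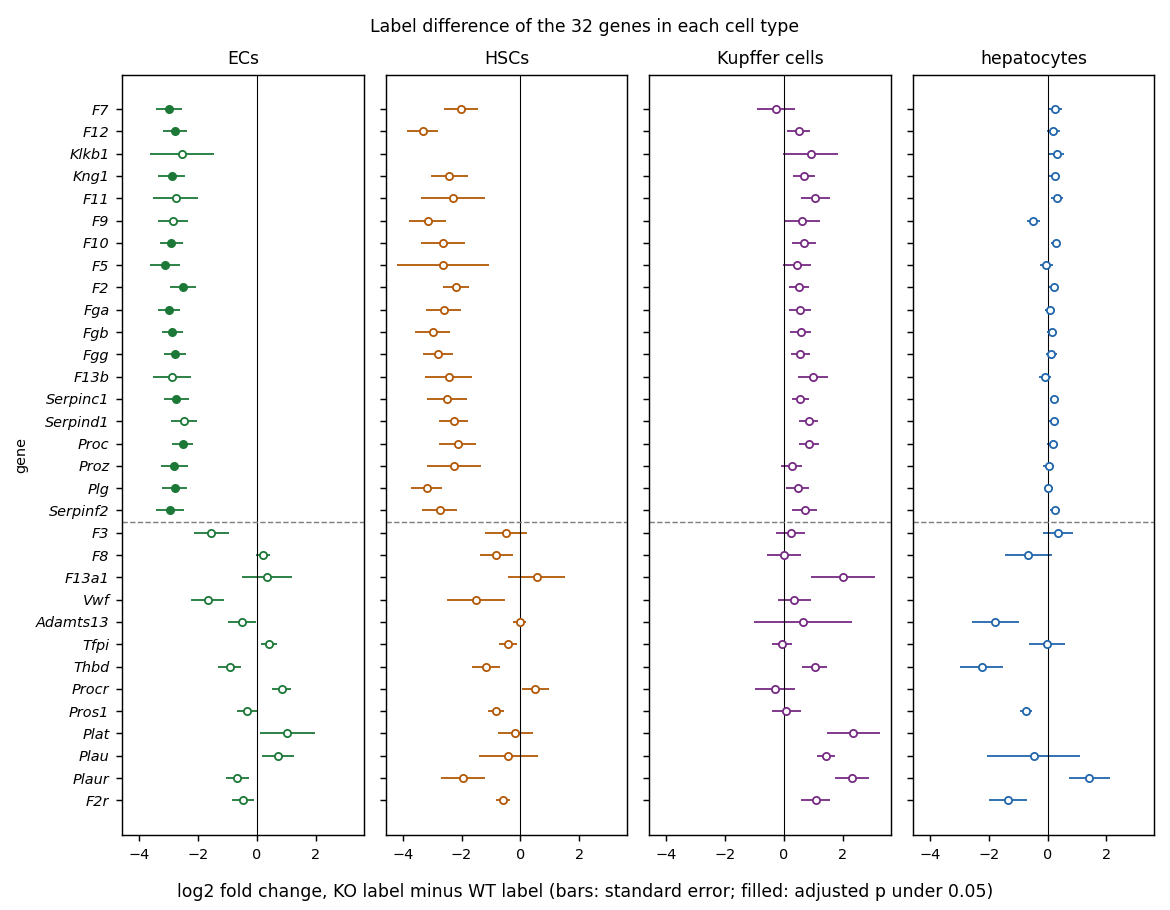
Log2 fold change of each gene, KO label minus WT label, with its standard error, from edgeR in each of the 4 cell types (filled points, adjusted p under 0.05; genes that did not pass the filter on low counts are not drawn; above the dashed line, the 19 hepatocyte genes). Filled points were found in ECs alone, where the 19 genes lay between -3.12 and -2.46, and the same genes had estimates below 0 in HSCs, between -0.49 and 0.33 in hepatocytes and mostly above 0 in Kupffer cells.

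No gene of the set passed the adjusted edgeR test in HSCs (0 of 31), as did 0% of all 14390 genes, and the smallest adjusted p of the set was 0.297. At an unadjusted p under 0.05, 17 genes were lower and 0 were higher under the KO label, against 7.00% lower and 1.75% higher among all genes. DESeq2, run as an alternative, placed 14 of the genes under its adjusted threshold, all lower, against 2.84% of all genes. Of the 17 genes, 15 were hepatocyte genes, as Plg with 133 and 268 CPM under WT and 13.9 and 29.6 CPM under KO (log2 fold change -3.20, SE 0.54, edgeR adjusted p = 0.297). The remaining 2 were Pros1 with 578 and 404 CPM against 328 and 239 CPM (-0.82, SE 0.28, adjusted p = 0.49) and Plaur with 21.5 and 8.64 CPM against 2.00 and 5.81 CPM (-1.95, SE 0.75, adjusted p = 0.554). The hepatocyte markers were lower under KO here too, with sums of 4465 to 10244 CPM in HSC WT and 837 to 1958 CPM in HSC KO libraries and all 15 read, and their part was not tested. Adamts13, the HSC gene of the set, had nearly equal levels under both labels, with an estimate of -0.03. Groups did not overlap for 23 of the genes, against 39.8% of all genes.

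In Kupffer cells the estimates pointed the other way. Under the KO label, 28 of the 32 genes had higher and 4 had lower estimates, but 0 passed edgeR's adjusted test (smallest adjusted p = 0.933), as did 0% of all 13867 genes. The median log2 fold change was 0.59 for the set, 0.57 for the 19 hepatocyte genes, 0.63 for the hepatocyte-enriched genes and -0.02 for all genes. Hepatocyte marker sums were 7952 to 11227 CPM in Kupffer WT and 12841 to 15096 CPM in Kupffer KO libraries with all 15 read, and their part was not tested. At an unadjusted p under 0.05, 5 genes were higher, against 3.35% of all genes, and 0 were lower, against 1.74%. Both the urokinase activator and its receptor were among them. Plau was 60.0 and 50.8 CPM under WT and 159 and 154 CPM under KO, 2.82 times higher (log2 fold change 1.43, SE 0.30, unadjusted p = 0.00267). Plaur was 108 and 51.0 CPM under WT and 268 and 560 CPM under KO, 5.22 times higher (2.31, SE 0.57, unadjusted p = 0.0064). Neither gene's groups overlapped, and DESeq2 placed Plau (adjusted p = 0.0108) and Plaur (adjusted p = 0.00362) under its threshold, with 0.519% of all genes. Estimates for Plau stayed between 1.22 and 1.68, and those for Plaur between 1.60 and 3.09, when single libraries were left out.

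Of the other 3 genes, Plat was 2.55 and 0.652 CPM under WT and 12.1 and 5.96 CPM under KO (log2 fold change 2.36, SE 0.90, unadjusted p = 0.0376). Thbd was 13.8 and 30.9 CPM under WT and 42.1 and 51.0 CPM under KO (1.04, SE 0.42, unadjusted p = 0.0453). EC markers summed to 709 to 989 CPM in Kupffer WT and 1020 to 1227 CPM in Kupffer KO libraries with all 10 read, and their part was not tested. Serpind1, a hepatocyte gene, was 43.3 and 62.6 CPM under WT and 82.5 and 112 CPM under KO (0.84, SE 0.32, unadjusted p = 0.0381). The groups of these 3 genes did not overlap either, as was the case for 16 of the set and 36.6% of all genes. Markers of monocytes and neutrophils, which also express Plaur, summed to 63.6 to 176 CPM in Kupffer WT and 81.7 to 206 CPM in Kupffer KO libraries with all 7 read. Platelet markers summed to 38.7 to 43.3 CPM and 74.8 to 141 CPM, with 5 or 6 of 8 read. The part of either list in these values was not tested.

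In hepatocytes, where most of the genes had their highest level, 0 of the 28 genes tested passed in edgeR, as did 0% of all 11548 genes. DESeq2 also called 0, against 0.277% of all genes, and gave no adjusted p for Adamts13, Thbd and Plau. F13a1, Vwf, Procr and Plat were too low to be tested there. Log2 fold changes of the 19 hepatocyte genes ranged from -0.49 to 0.33 around a median of 0.20. At an unadjusted p under 0.05, 2 genes were lower, against 4.69% of all genes, and 0 were higher, against 2.42%. Pros1 was 76.5 and 58.0 CPM under WT and 44.3 and 33.5 CPM under KO (log2 fold change -0.73, SE 0.22, unadjusted p = 0.0152, adjusted p = 0.70). Thbd was 3.44 and 2.25 CPM against 0.387 and 0.741 CPM (-2.24, SE 0.73, unadjusted p = 0.0228, adjusted p = 0.70), and rests on 6 counts in library KO 25. Markers of the other cell types were lower under KO in these libraries as well. EC markers summed to 112 to 122 CPM under WT and 76.3 to 93.4 CPM under KO with all 10 read, Kupffer cell markers to 224 to 437 CPM and 148 to 195 CPM with all 9 read, and HSC markers to 211 to 216 CPM and 114 to 188 CPM with 8 or 9 of 9 read. Their part in these values was not tested. Groups did not overlap for 14 of the genes, against 39.5% of all genes.

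Whether the label difference in ECs departed from that in another cell type was tested as an interaction over the 16 libraries. Against Kupffer cells 11 genes passed, all of them hepatocyte genes with a more negative difference in ECs, against 2.07% of the 17214 genes tested. There were 21 genes at an unadjusted p under 0.05, against 14% of all genes, and 20 past the adjusted threshold in DESeq2, against 6.31%. Against HSCs 0 genes passed in edgeR, against 0.0349% of all genes, 0 passed in DESeq2, against 0.569%, and 0 had an unadjusted p under 0.05, against 4.85%. Against hepatocytes 0 genes passed in edgeR, against 0.0697% of all genes, with 19 at an unadjusted p under 0.05, against 9.12%, and 15 past the adjusted threshold in DESeq2, against 3.44%. Outside the hepatocyte group, Plaur (log2 difference -2.97) and Thbd (-1.99) had an unadjusted p under 0.05 between ECs and Kupffer cells. Neither passed the adjusted test in edgeR (adjusted p = 0.167 and 0.235), and Plaur passed in DESeq2 (adjusted p = 0.0375). The 11 calls against Kupffer cells depended on single libraries. Most or all were lost without EC WT 38, EC KO 6, EC KO 46, Kupffer WT 31, Kupffer KO 43 or Kupffer WT 39. The share of all genes that passed without these libraries was not counted.

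Of the wider list of 25 genes, 4 of 22 tested passed in ECs, all lower under the KO label and all among the genes highest in hepatocytes, against 1.97% of all genes that were lower. They were Cpb2 (60.9 and 146 CPM to 11.2 and 7.51 CPM, log2 fold change -3.47, adjusted p = 0.03), Hrg (141 and 264 CPM to 29.5 and 14.6 CPM, -3.21, adjusted p = 0.03), Serpina10 (35.0 and 58.1 CPM to 3.20 and 7.09 CPM, -3.15, adjusted p = 0.0388) and Habp2 (43.0 and 85.6 CPM to 11.1 and 7.37 CPM, -2.80, adjusted p = 0.0315). Serpina10 encodes the inhibitor of factor Xa that works with protein Z. These calls were mostly lost without EC KO 6 and all lost without EC KO 46, where the share of all genes was not counted. In HSCs, Kupffer cells and hepatocytes 0 genes of the list passed in edgeR, and the same held for 0% of all genes. In HSCs 7 genes were lower at an unadjusted p under 0.05, against 7% of all genes, in Kupffer cells 1 was lower and 1 higher, against 1.74% and 3.35%, and in hepatocytes there were 0. DESeq2 placed 4 under its threshold in HSCs, against 2.84% of all genes. It placed 0 in Kupffer cells, against 0.519%, and 0 in hepatocytes, against 0.277%.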

How the data were processed

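RNA of 4 sorted or separated liver cell types was measured in 16 libraries, in pairs by cell type and label. The files deposited by the authors hold counts of reads per Ensembl gene, not normalized. The submitters' processing notes name Trimmomatic 0.32, HISAT2 2.1.0, HTSeq 0.9.1, edgeR and the build GRCm38. The strand setting is not given in the sources used here, and 2 descriptions of the library preparation differ. In hepatocyte libraries 38.2% to 47.9% of the reads were not uniquely placed, against 24.8% to 30.1% elsewhere. The 5 summary lines of the counter were left out of all totals, and lines that named no gene held 42.5% to 57.5% of reads. Positions, lengths and exon overlaps come from GENCODE M21, which holds 98.9% of the identifiers and all 32 genes. Exons of 6 of the 32 genes overlap those of another gene, for 5 of them on the other strand (F5, Fgg, F13a1, Serpinc1 and Plg).

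CPM used the total of gene counts, and TPM divided by exonic length. Tests used edgeR 4.0.16 in R 4.3.3 (filterByExpr, TMM factors, quasi-likelihood F-test) over all genes, with a Benjamini-Hochberg adjusted p under 0.05 as the threshold. That test returns no standard error. Each SE printed here is the absolute log2 fold change divided by the square root of the F statistic. Labels were compared within a cell type, cell types among the 8 WT libraries, and interactions over all 16. With 2 libraries per group an exact permutation test cannot go below p = 0.333 (two-sided), so none was made. The labels do not state that libraries came from separate mice, so p-values measure the spread between these libraries, and cell types may share livers. Replicates differed by more than sampling noise. Alternatives were DESeq2 1.42.0, RLE factors, library totals, other filters, other sets of samples, library sizes without hepatocyte-enriched genes, and leaving out each library. The 32 genes, the marker and pathway lists and the tests were chosen with earlier results of these data known. All 32 genes are named. Test values between labels are printed for part of the genes with an unadjusted p under 0.05, and the rest of those are given by count or range. They are also printed for others as singled out after their values were seen (Klkb1 is given by its levels). Genes of the wider list are named where they passed a label test or were among the 3 most abundant in the cell type where they were highest, and 1 such gene is not reported here. Plots used matplotlib 3.10.9.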

Additional observations from a re-analysis of the deposited data

Results flagged for a closer look

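For 11 genes the label difference in ECs and that in Kupffer cells differed in the interaction test of edgeR over 16 libraries. All 11 had lower CPM in both EC KO libraries than in both EC WT libraries, while their estimates in Kupffer cells were above 0. The difference (ECs minus Kupffer cells, log2) was -3.31 for F12, -3.59 for Kng1, -3.49 for F9, -3.05 for F2, -3.53 for Fga, -3.46 for Fgb and -3.36 for Fgg. It was -3.32 for Serpind1, -3.39 for Proc, -3.28 for Plg and -3.67 for Serpinf2. Adjusted p-values ranged from 0.0278 to 0.0395. The median of the hepatocyte markers also was lower in ECs and was higher in Kupffer cells under the KO label, from 10.9% and 23.9% to 2.41% and 1.95% of the WT hepatocyte level in ECs and from 5.26% and 8.24% to 9.37% and 12.1% in Kupffer cells, and its part in these differences was not tested.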

How the results depend on the processing

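No paired analysis was possible because no library number of the labels occurs in more than 1 group. The 45 log2 fold changes with an unadjusted p under 0.05 in the main edgeR fit were repeated in other settings. Of 495 such repeats, 399 stayed on the same side of the threshold, 38 fell short of it, 58 newly passed and 0 changed direction. Estimates selected in this way seldom change sign, so the 0 does not describe the other genes. Among those, F2r in ECs ran from -0.94 to 0.22 when single libraries were left out. F7 in Kupffer cells ran from -1.04 to 0.79. The count of genes called in ECs (14, all lower) became 7 with library totals and lay between 0 and 19 when single libraries were left out, the 19 being 18 lower and 1 higher. It was 0 in a fit over hepatocyte-enriched genes alone, added after the data had been seen. That setting takes library sizes from genes that share the shift and so removes the shared part by its construction. All 19 hepatocyte genes had estimates below 0 in ECs (median -0.36), as had all 18 in HSCs (median -0.89). The share of all genes in that fit with estimates below 0 was not counted. At an unadjusted p under 0.05 there were 0 of the 19 in ECs and 4 of the 18 in HSCs. Their smallest edgeR adjusted p was 0.333 in ECs and 0.105 in HSCs, and 0 of all 831 and 752 genes passed. The count in ECs was 18 with DESeq2 and 20 without a filter. In these settings 528 of 833 and 593 of 857 hepatocyte-enriched genes passed, against 259 of 833 in the main fit. The wider list in ECs (4) lay between 0 and 5 without single libraries. In HSCs the count (0) became 18 without a filter, 14 with DESeq2 and 9 with all 16 libraries in one fit, and that of the wider list (0) became 5, 4 and 2. In Kupffer cells it became 2 without a filter and 2 with DESeq2. For the interaction of ECs and Kupffer cells the count (11) became 5 with library totals, 21 without a filter and 20 with DESeq2, and lay between 0 and 12 without single libraries. For that of ECs and hepatocytes (0) it became 19 without a filter and 15 with DESeq2. Genes highest in ECs (2) were 1 to 2, and those highest in Kupffer cells (1) were 0 to 1, without single libraries. Genes highest in Kupffer cells were 2 without a filter, 2 with DESeq2, 3 in the libraries labelled KO and 3 with all 16 libraries, and those highest in HSCs (1) were 2 without a filter and 2 with all 16 libraries. For alternative settings other than DESeq2 the share of all genes that passed was not counted, so these counts have no such share beside them. The cause of these changes was not tested. Where a library was left out, the lone library of its group was assumed to vary like the other groups. F13a1, Vwf, Plat, Klkb1, F5, Plau, Procr and Adamts13 had at least 1 library under the floor of 0.191 to 0.233 CPM.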
